A study of Homo sapiens with 3 samples.

Results

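The genes described here encode parts of the centrosome, the centriole and the augmin complex. They were chosen by name: the CEP family, the centriole duplication factors PLK4, STIL and SASS6, the pericentriolar genes PCNT, CDK5RAP2, NEDD1 and TUBG1, and the HAUS genes of augmin. Of the 47 members, 44 were measured by at least 1 probe set assigned to a single gene, and all 44 passed the filter on low signal, among 12307 genes that did so in all. CEP83, CEP170 and HAUS4 are not analysed here, because no probe set was assigned to them alone.

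The samples were 3 cultures of IMR-90 cells, a line of human fetal lung fibroblasts, grown in medium with 10% serum. Each was transfected for 24 h with 1 siRNA: the control siRNA labelled GL3, or SETD8-1 or SETD8-2. SETD8 (PR-Set7, current symbol KMT5A) is the methyltransferase that places the first methyl group on lysine 20 of histone H4. There was 1 array per siRNA, so no value has a replicate error, no p-value is given, and the number of arrays limits the precision. The comparison asks which members differ in transcript level when SETD8 is targeted, with 2 siRNAs set against the same control array.

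The centrosome holds a pair of centrioles inside a protein matrix, the pericentriolar material, that anchors gamma-tubulin and nucleates microtubules. Once per cell cycle each centriole templates a new one, a step started by the kinase PLK4 with STIL and the cartwheel protein SASS6. The older centriole carries appendages that dock it to the membrane when a resting cell builds a primary cilium. Augmin binds spindle microtubules and recruits gamma-tubulin so that new microtubules branch from old ones. In fibroblasts these parts serve division and, between divisions, the cilium.

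Some facts of the arrays bear on all values. The 4 probe sets of KMT5A read 45.9% to 74.7% of their control signal under SETD8-1 and 62.2% to 86.3% under SETD8-2. All were thus below control on both arrays, but only the reading of 45.9% was at least 2-fold lower. With 1 array per siRNA, the fall of the targeted transcript was not tested. All 10 fibroblast markers passed the filter, with signals from 877.1 to 36638.9. Of the other markers, 3 of 8 epithelial, 3 of 7 endothelial and 1 of 5 leukocyte genes passed it. The summed epithelial signal was 3364.9 on the control array, 3202.1 under SETD8-1 and 6549.4 under SETD8-2, most of it from KRT18, and the summed endothelial signal was 1393.5, 1630.1 and 2247.2 in the same order. The leukocyte sum was at most 188.3. PTPRC (leukocyte), CDH5 (endothelial) and CDH1 (epithelial) did not pass the filter. Those that passed it were EPCAM, KRT8 and KRT18 (epithelial), PECAM1, VWF and TEK (endothelial), and ITGAM (leukocyte). EPCAM had 157.1, 49.1 and 194.2 on the control, SETD8-1 and SETD8-2 arrays, and TEK had 1251.3, 1274.8 and 2033.1. The part of these cells or genes in the results below was not tested.

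Signal of the centrosome genes was mostly lower with both SETD8 siRNAs. At any size, 36 of the 44 members (81.8%) were lower than control with both, where 33.9% of all genes compared were, and no member was higher with both, where 31.1% of all genes were. These counts use the brightest probe set of each gene. With all probe sets of a gene averaged, 36 members were lower with both and 3 were higher: CEP41 (0.30 and 0.05), CEP164 (0.26 and 0.37) and CEP112 (0.15 and 0.50). For CEP41 and CEP112 the average takes in probe sets below the filter. On the brightest probe sets, the other 8 members had opposite signs with the 2 siRNAs, against 34.9% of all genes. The members' median log2 change was -0.58 under SETD8-1 (SD across genes 0.77) and -0.76 under SETD8-2 (SD 0.66), beside medians of -0.02 and -0.01 over all genes. In RNA from a whole culture, fewer dividing cells and less transcript per cell cannot be told apart.

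At least 2-fold lower with both siRNAs were 8 of 44 members (18.2%), where 3.23% of all genes were: PLK4, STIL, CEP152, CEP57L1, CEP70, CEP128, CEP55 and HAUS6. None was at least 2-fold higher with both, against 1.5% of all genes. At the smaller size of 1.5-fold, 19 members were lower with both, against 7.37% of all genes. Taken singly, SETD8-1 had 14 members at least 2-fold lower (7.75% of all genes) and SETD8-2 had 15 (6.65%). No member was 2-fold higher with either siRNA, where 5.48% and 4.46% of all genes were. Both comparisons use the same control array, so a low or high reading on that array moves both.

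**Figure D1:**
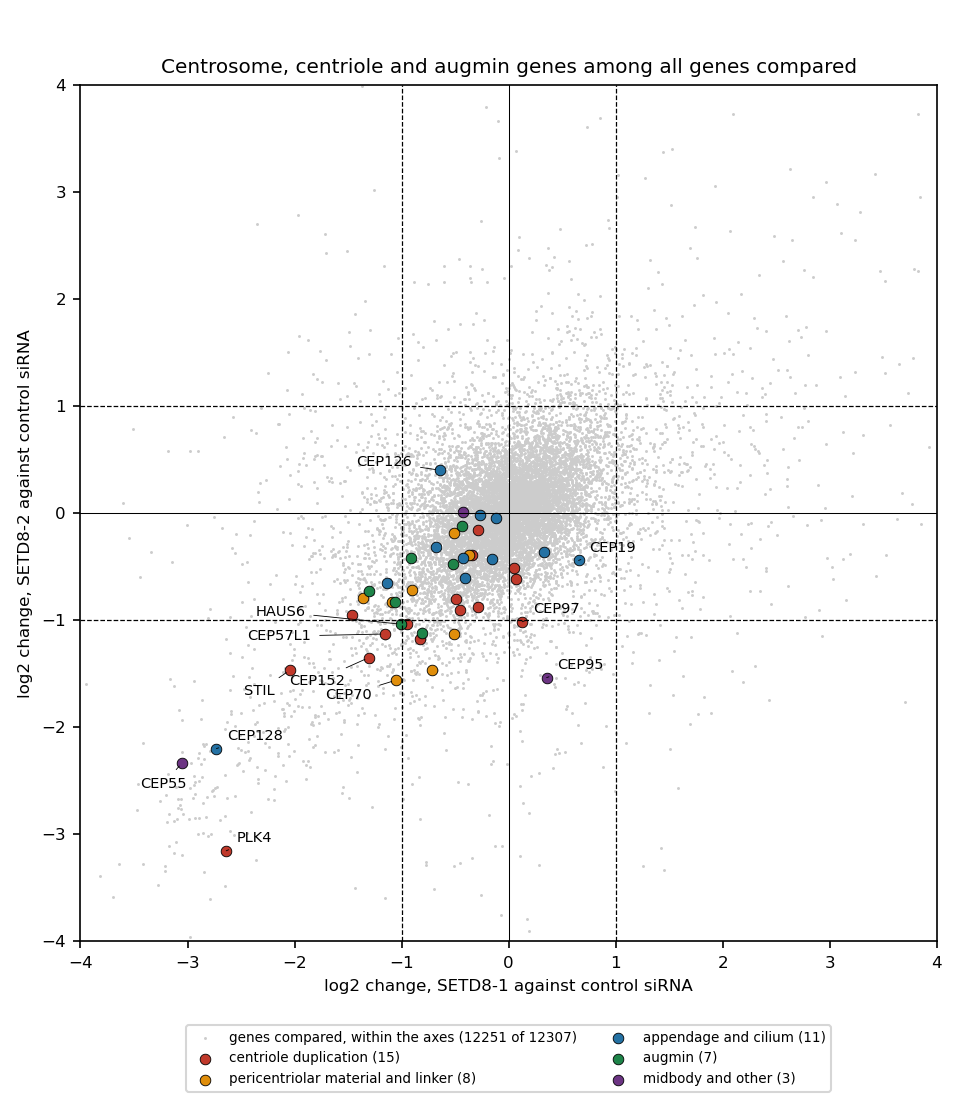
Log2 change of each gene from the control array to the SETD8-1 array (horizontal) and to the SETD8-2 array (vertical). Coloured points are the 44 members by role, grey points the other genes compared that fall within the axes, and dashed lines mark 2-fold. The members lie mostly at the lower left, where PLK4, CEP55 and CEP128 are farthest from 0.

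A second measure of size was the difference between the 2 SETD8 siRNA arrays, in which noise of the arrays and differences of the siRNAs are mixed. Its 95th percentile over genes of like signal was 2.21 on the log2 scale among the dimmest genes, 1.72 for genes of the signal of PLK4 and CEP128, 1.25 for those of the signal of STIL and CEP55, and 1.14 among the brightest. By more than this amount, 4 members were lower with both siRNAs (1.52% of all genes): PLK4, STIL, CEP128 and CEP55. None was higher by that amount, against 0.544% of all genes. For CEP152, CEP57L1, CEP70 and HAUS6 the change was within this amount with both siRNAs.

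Among the centriole duplication genes, PLK4 and STIL were the lowest. PLK4, the kinase that starts a new centriole, had a signal of 1081.7 on the control array, 173.7 under SETD8-1 and 121.6 under SETD8-2. These were 16.1% and 11.2% of control, log2 changes of -2.64 and -3.15, and the mean of the pair ranked 37th from the lowest among 12307 genes. A further probe set of PLK4 had 980.1, 98.2 and 148.6, so both stood well below control on each SETD8 siRNA array. STIL, the PLK4 substrate that brings SASS6 to the new cartwheel, had 1614.2, 391.5 and 584.5, or -2.04 and -1.47, and was lower with SETD8-1 than with SETD8-2.

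SASS6 itself lay at the edge of the 2-fold size, with a signal of 278.3 on the control array, 144.2 under SETD8-1 and 136.0 under SETD8-2 (-0.95 and -1.03). CEP152, the scaffold that draws PLK4 to the parent centriole, had 520.5, 210.5 and 204.5 (-1.31 and -1.35), nearly equal on both SETD8 siRNA arrays. Its other probe set above the filter had 96.3, 36.4 and 66.7 (-1.40 and -0.53). Averaged over its 5 probe sets, 3 of them dim, CEP152 had -0.67 and -0.66, under 2-fold. CEP57L1, a paralogue of the CEP152 partner CEP57, had 392.5, 176.3 and 179.7 (-1.15 and -1.13). With probe sets shared between transcripts left out, its value with SETD8-2 was -0.88. CEP85, which binds STIL, had 349.8, 126.7 and 181.0 (-1.47 and -0.95), just outside 2-fold with SETD8-2. Its other probe set had -2.51 and -0.13.

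The other members of this role did not reach 2-fold with both siRNAs. CEP135, a cartwheel and centriole wall protein, had log2 changes of -0.83 and -1.17, CEP57 -0.45 and -0.90, and CEP192, which recruits both PLK4 and pericentriolar material, -0.49 and -0.80. The values of CEP295, needed to turn a new centriole into a centrosome, were -0.29 and -0.88, and -1.17 and -0.77 on its other probe set above the filter. CEP44 had -0.34 and -0.39 on its brightest probe set, and -0.89 and -1.62 on its other one above the filter. CEP63, the partner of CEP152, had -0.28 and -0.15. On their brightest probe sets CEP76, CEP97 and CEP120 were close to control with SETD8-1 (0.07, 0.13 and 0.05) and lower with SETD8-2 (-0.61, -1.01 and -0.51). The value of CEP97 depended on the probe set: it was -0.15 and 0.21 without shared probe sets, and -0.16 and -0.56 averaged. CEP76 limits repeated duplication, CEP97 caps the growing centriole with CP110, and CEP120 supports its elongation. Of the 15 genes of this role, 12 (80%) were lower with both siRNAs at any size, against 33.9% of all genes. By at least 2-fold, 4 (26.7%) were lower with both, against 3.23%.

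**Figure D2:**
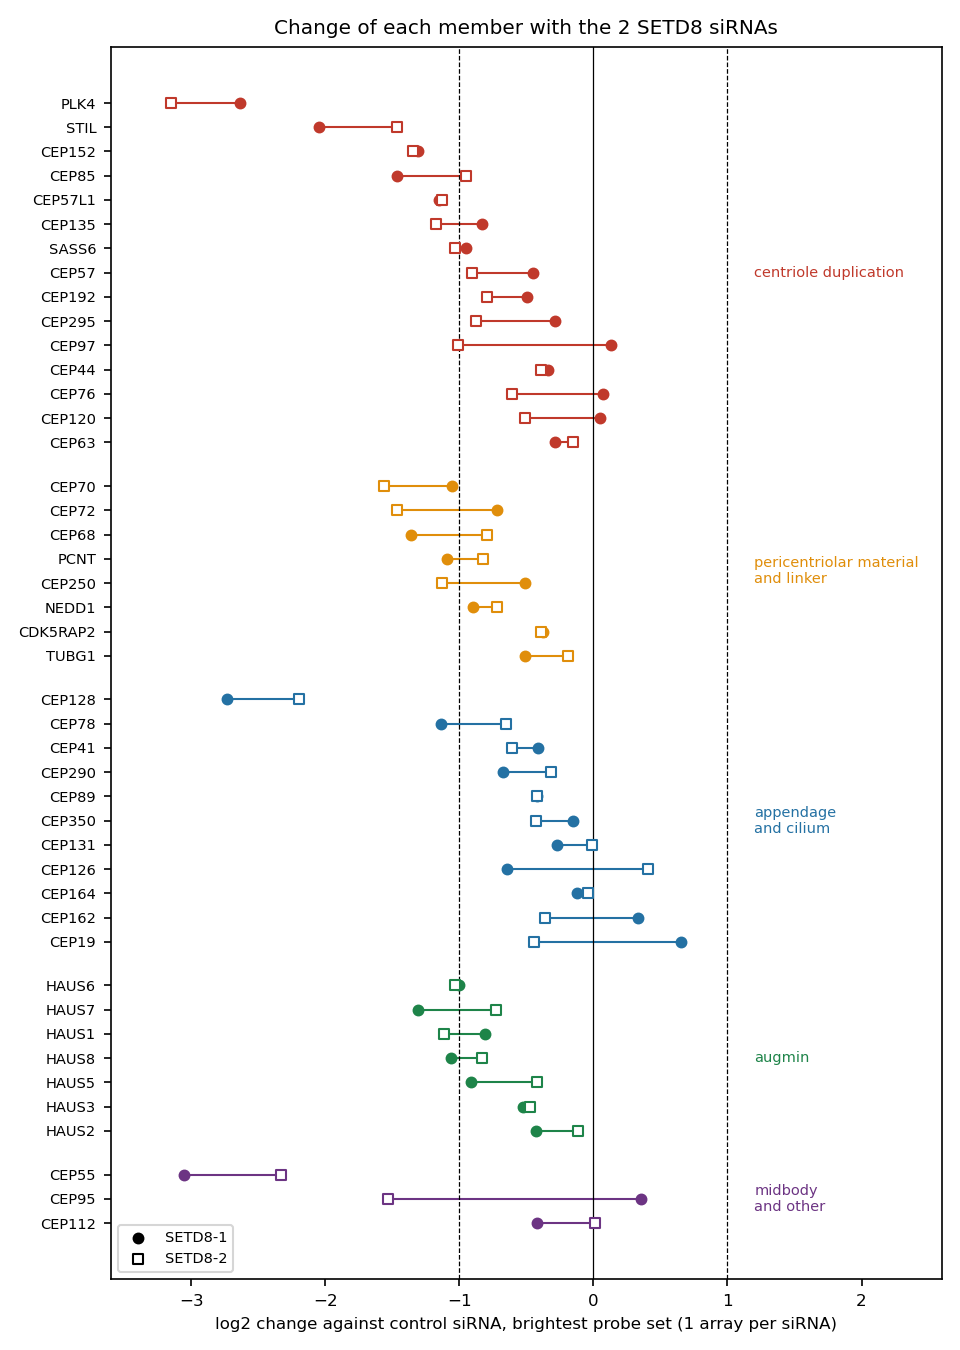
Log2 change against the control siRNA for each of the 44 members by role, from the brightest probe set, with SETD8-1 as filled circles and SETD8-2 as open squares, 1 array each. Dashed lines mark 2-fold. All 8 pericentriolar and linker genes and all 7 augmin genes lie left of 0 with both siRNAs. CEP76, CEP97, CEP120, CEP19, CEP162, CEP126, CEP95 and CEP112 have symbols on both sides of it.

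All 8 members of the pericentriolar material and the linker between centrosomes were lower with both siRNAs, 1 of them by at least 2-fold. That gene was CEP70, a centrosomal protein that binds gamma-tubulin, with a signal of 558.2 on the control array, 268.7 under SETD8-1 and 189.4 under SETD8-2 (-1.05 and -1.56). Without shared probe sets it had -0.83 and -1.07. The matrix scaffold pericentrin, PCNT, had 716.7, 336.1 and 404.0 (-1.09 and -0.83), and NEDD1, which attaches the gamma-tubulin ring to the centrosome, had 2570.5, 1377.4 and 1564.8 (-0.90 and -0.72). The linker gene CEP68 had -1.36 and -0.79, and its partner CEP250 had -0.51 and -1.13. Further CEP250 probe sets above the filter had -2.05 and -0.80, and -0.08 and -0.65. CEP72 had -0.72 and -1.46. Gamma-tubulin itself, TUBG1, was among the least changed, with 2152.7, 1508.5 and 1892.4 (-0.51 and -0.19), as was the scaffold CDK5RAP2 with -0.37 and -0.39. The median change of this role was -0.81 with either siRNA (SD over members 0.34 and 0.48).

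By median, genes of the centriole appendages and the cilium were closer to control than those of centriole duplication, the pericentriolar material and augmin. At any size, 8 of 11 (72.7%) were lower with both siRNAs, against 33.9% of all genes. At least 2-fold lower with both was 1 of 11 (9.1%), against 3.23% of all genes. That gene was CEP128, a protein of the subdistal appendages, with a signal of 660.1 on the control array, 99.5 under SETD8-1 and 143.9 under SETD8-2. Its log2 changes were -2.73 and -2.20, or 15.1% and 21.8% of control, and it ranked 88th from the lowest of all genes compared. On their brightest probe sets, genes of the distal appendages, which dock the centriole to the membrane, did not share this size. CEP164 had 916.5, 842.9 and 890.7 (-0.12 and -0.04), and CEP89 had -0.42 with either siRNA. The 6 probe sets of CEP89 ranged from -1.92 to -0.19 with SETD8-1 and from -1.76 to -0.15 with SETD8-2. Of these, 1 was at least 2-fold lower with both (-1.92 and -1.35).

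CEP78, a protein of the centriole wall, had 832.5, 378.5 and 529.2 (-1.14 and -0.65). CEP290, a gatekeeper at the base of the cilium, had -0.67 and -0.32, and -1.98 and -0.59 on its other probe set above the filter. CEP41, which supports glutamylation of ciliary tubulin, had -0.41 and -0.61. CEP350 had -0.16 and -0.43, and the satellite protein CEP131 had -0.27 and -0.01. The role's medians were -0.41 with SETD8-1 and -0.42 with SETD8-2 (SD over members 0.88 and 0.65). CEP162, which acts at the base of the cilium, had 80.9, 101.8 and 62.9 (0.33 and -0.36) on its brightest probe set, and 122.4, 60.4 and 54.4 (-1.02 and -1.17) on its other one. Read from the probe set brightest on the control array, it was thus at least 2-fold lower with both siRNAs.

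Each of the 7 augmin subunits measured was lower with both siRNAs, where 33.9% of all genes were. On the brightest probe sets HAUS6 alone reached 2-fold with both (14.3% of the subunits, against 3.23% of all genes). HAUS6, the large subunit that contacts gamma-tubulin through NEDD1, had a signal of 1801.9 on the control array, 898.4 under SETD8-1 and 879.0 under SETD8-2 or 49.9% and 48.8% of control. It lay on the edge of the size used, and fell short of it with median scaling, quantile normalization, a pseudocount of 16 or averaged probe sets. HAUS1 had 2625.3, 1498.5 and 1211.3 (-0.81 and -1.12), and HAUS8, the subunit that binds microtubules, had 245.9, 117.7 and 138.2 (-1.06 and -0.83). HAUS7 had 486.3, 196.6 and 293.7 (-1.31 and -0.73).

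HAUS5 had 315.9, 167.8 and 236.5 (-0.91 and -0.42) on its brightest probe set. A dimmer one had 135.0, 23.0 and 48.6 (-2.55 and -1.47), over 2-fold lower with both siRNAs, and the average of its 3 probe sets was -2.26 and -0.92. HAUS3 had 899.6, 626.5 and 649.1 (-0.52 and -0.47), and HAUS2 had 1306.1, 968.8 and 1207.1 (-0.43 and -0.11). The control array was thus the highest of the 3 for every subunit measured. Augmin medians were -0.91 (SD over subunits 0.31) with SETD8-1 and -0.73 (SD 0.36) with SETD8-2. HAUS2 and HAUS7, like CEP44, CEP76 and CEP97, were read by a probe set of a kind that can bind related transcripts, so their values are less certain.

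**Figure D3:**
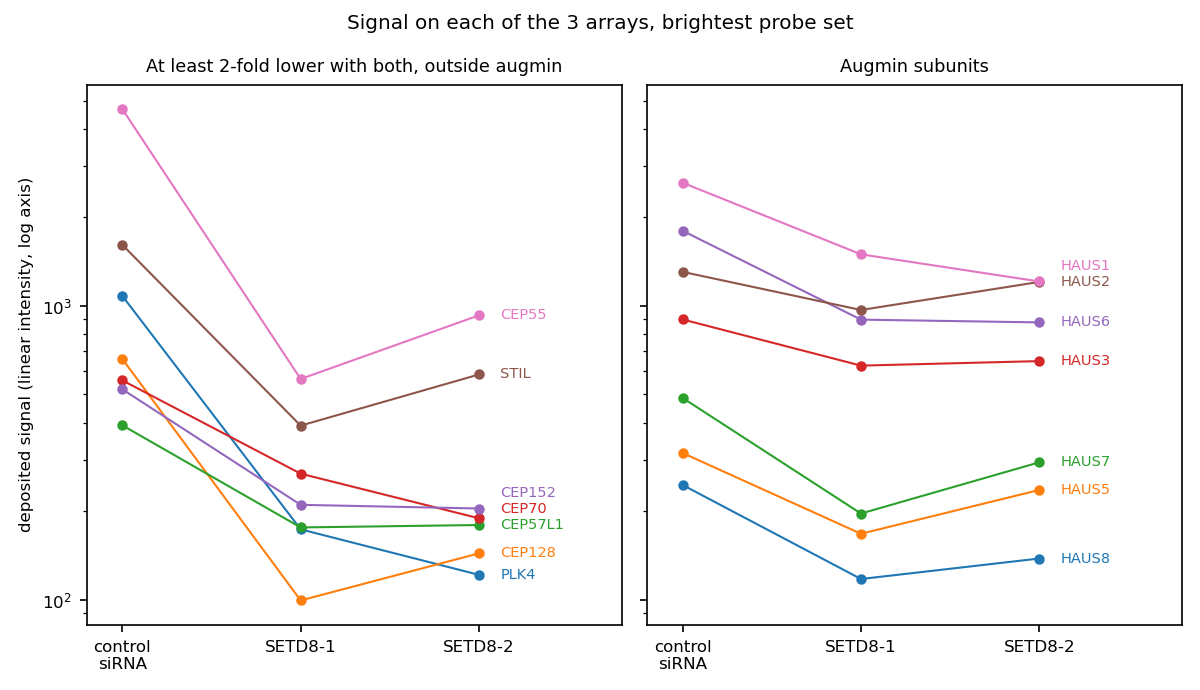
Deposited linear signal, on a log axis, on the control siRNA, SETD8-1 and SETD8-2 arrays, from the brightest probe set of each gene. The left panel shows the 7 members outside augmin that passed 2-fold lower on both SETD8 siRNA arrays, and the right panel the 7 augmin subunits. The genes on the left were chosen by size of change and those on the right were not, so the panels cannot be compared for steepness. PLK4 drops from 1081.7 to 173.7 and 121.6, and HAUS6 from 1801.9 to 898.4 and 879.0.

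CEP55 acts at the end of division, where it recruits the ESCRT machinery to the midbody for the final cut between daughter cells. Its signal was 4677.1 on the control array, 564.3 under SETD8-1 and 929.2 under SETD8-2, which is 12.1% and 19.9% of control and log2 changes of -3.05 and -2.33. It was the lowest member with SETD8-1 and ranked 47th from the lowest among all genes there. CEP112 had -0.42 and 0.01.

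The 2 siRNAs differed little in the middle of the list. The median log2 difference, SETD8-2 minus SETD8-1, was -0.01 (SD over members 0.57), with no settled sign. At least 2-fold lower with SETD8-2 than with SETD8-1 were 3 members (6.38% of all genes), CEP95, CEP97 and CEP19, and 1 was at least 2-fold higher (6.18% of all genes), CEP126. CEP95 had a signal of 181.1 on the control array, 231.7 under SETD8-1 and 62.5 under SETD8-2. CEP97 had 833.5, 910.5 and 413.1, and CEP19, a ciliary protein, had 332.3, 522.9 and 245.0. On these probe sets all 3 were above control with the first siRNA and below it with the second. For CEP97 the other 2 probe sets were below control with SETD8-1 (-0.46 and -0.15), and 1 of them was above it with SETD8-2 (0.21). For CEP95 the average with 2 probe sets below the filter was 0.12 and -0.02, so the gap rests on 1 probe set.

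CEP126 went the other way, with 194.5 on the control array, 124.5 under SETD8-1 and 257.3 under SETD8-2. Its 3 probe sets gave log2 changes between -1.62 and -0.64 with SETD8-1 and between 0.33 and 0.44 with SETD8-2. The pair of CEP19 probe sets also agreed, at 0.61 and 0.65 with SETD8-1 and -0.47 and -0.44 with SETD8-2. Among the members 2-fold lower with both, CEP55 had the widest gap between the siRNAs (0.72). The gaps of CEP95, CEP97, CEP19 and CEP126 were all within the 95th percentile for genes of like signal (2.21, 1.72, 1.72 and 2.21), and gaps of single arrays have no replicate check.

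Separate probe sets of 1 gene read the same RNA and are no replicates, but they show how far a value rests on 1 of them. The members had 123 probe sets, 98 of them above the filter. Of these 98, 81 (82.7%) were lower with both siRNAs, where 35.2% of all single-gene probe sets were, and 17 (17.3%) were at least 2-fold lower, against 2.93%. In 21 of the 30 members with over 1 such probe set, all of them were lower with both siRNAs. For PLK4 and CEP128 all were at least 2-fold lower: the 3 of CEP128 gave -3.11 to -1.58 with SETD8-1 and -2.35 to -1.80 with SETD8-2.

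For several members the brightest probe set was the one nearest to control. The brightest was picked by its mean over all 3 arrays, and this choice can favour a probe set that is less lowered on the SETD8 siRNA arrays. All 5 probe sets of CEP57 were lower with both siRNAs, from -1.51 to -0.45 with SETD8-1 and from -1.46 to -0.90 with SETD8-2, and the brightest gave the values nearest to 0. The 3 of NEDD1 ranged from -1.07 to -0.90 and from -1.49 to -0.72, and the 4 of HAUS2 from -0.97 to -0.43 and from -0.44 to -0.11. In all, 40 of 54 member probe sets other than the brightest had a lower value than it with SETD8-1, and 28 of 54 with SETD8-2. The same count over all genes was not made. Probe sets disagreed in sign with at least 1 siRNA in 6 members: CEP162 and CEP97, as given above, CEP164, PCNT, CEP63 and CEP120. Those of CEP164 ranged from -0.28 to 1.17 with SETD8-1. With the same siRNA those of PCNT ranged from -1.09 to 0.02, the latter from a dim probe set, and those of CEP120 from -0.10 to 0.05. Those of CEP63 ranged from -0.15 to 0.18 with SETD8-2.

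**Figure D4:**
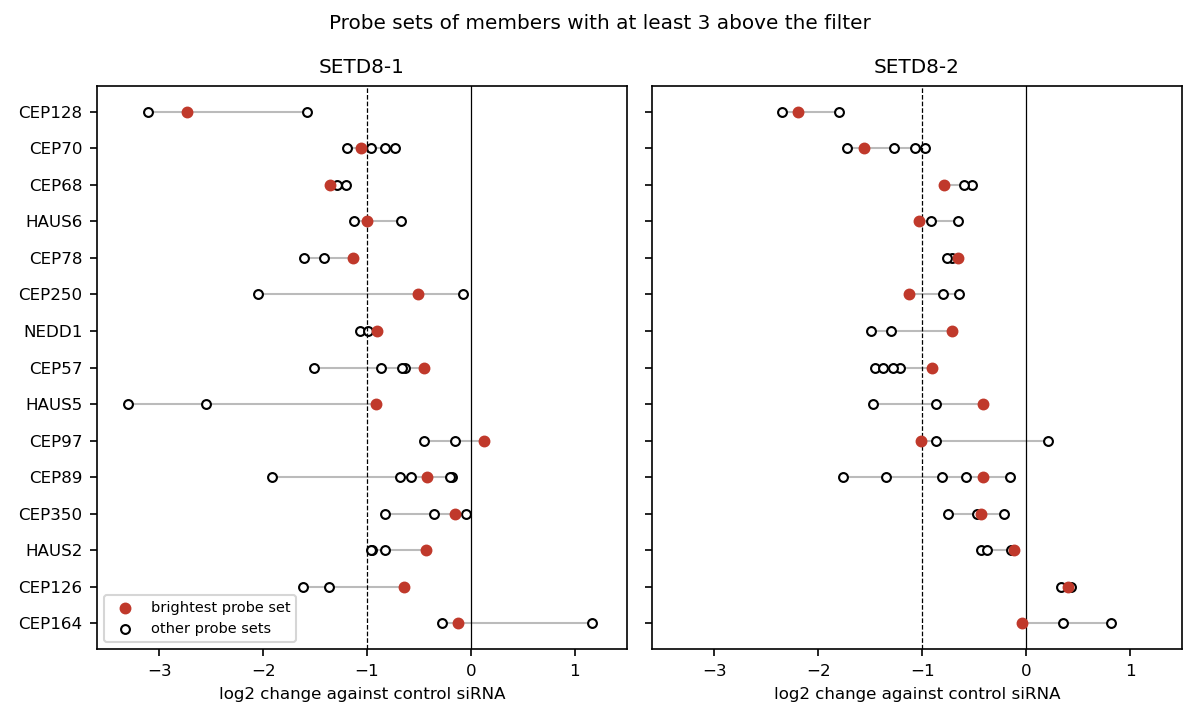
Log2 change against the control siRNA of each probe set above the filter, for the 15 members with at least 3 of them, with SETD8-1 on the left and SETD8-2 on the right. Filled points are the brightest probe set and open points the others of the same gene, and grey lines join their range. Most points lie left of 0, and the brightest is the rightmost for CEP57, CEP78, NEDD1, HAUS2 and HAUS5 in both panels. The leftmost HAUS5 point with SETD8-1 is a signal of 2.0 set to 11.7, the floor used before log2.

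Other genes of the centrosome and its partners were read from lists drawn up by function. Of 27 further centrosome genes compared, 5 (18.5%) reached 2-fold lower with both siRNAs and 0 reached 2-fold higher, against 3.23% and 1.5% of all genes. The medians of these 27 were -0.18 and -0.44. The lowest were POC1A, a centriole wall protein (-2.37 and -1.59), CNTRL (-1.78 and -1.89), CPAP, which sets centriole length (-1.64 and -1.22), and CNTLN (-1.17 and -1.63). SCLT1 was the other. None of the 8 genes of the gamma-tubulin ring complex was 2-fold lower with both, which is near the share of all genes (3.23%). Their medians were -0.25 and 0.02, and at any size 4 were lower and 3 higher with both, against 33.9% and 31.1% of all genes. TUBGCP3 had -1.10 and -0.89, TUBGCP4 -0.93 and -0.48, the small subunit MZT1 -0.72 and -0.69, and TUBG2 0.37 and 0.79.

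The mitotic kinases and spindle pole proteins that act on centrosomes were mostly lower by more. Of 16 such genes, 11 (68.75%) passed 2-fold lower with both siRNAs, against 3.23% of all genes. Their medians were -2.32 (SD over genes 1.18) and -2.25 (SD 1.27). NEK2, which cuts the linker between centrosomes, had -3.21 and -3.30, the pole protein ASPM -3.17 and -3.11, the motor KIF11 -3.04 and -2.81, and TPX2 -2.94 and -2.54. Of 8 cytokinesis and midbody genes, 6 were at least 2-fold lower, among them PRC1 (-3.06 and -2.67), ANLN (-2.85 and -2.18), AURKB (-2.54 and -2.35) and RACGAP1 (-2.65 and -2.01). PLK4 and CEP55 lay below both medians of the mitotic list and CEP128 below the first, and no other member lay below either.

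Intraflagellar transport and BBSome genes, which build and maintain the cilium, lay around control. None of the 20 was 2-fold lower or higher with both siRNAs, which is near the shares of all genes (3.23% and 1.5%), and the medians were 0.03 and -0.04. The values farthest from 0 in the same direction were those of IFT140 (1.15 and 0.41, from a control signal of only 33.9), IFT122 (-0.36 and -1.14), IFT81 (-0.12 and -1.03) and BBS2 (0.66 and 0.46).

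**Figure D5:**
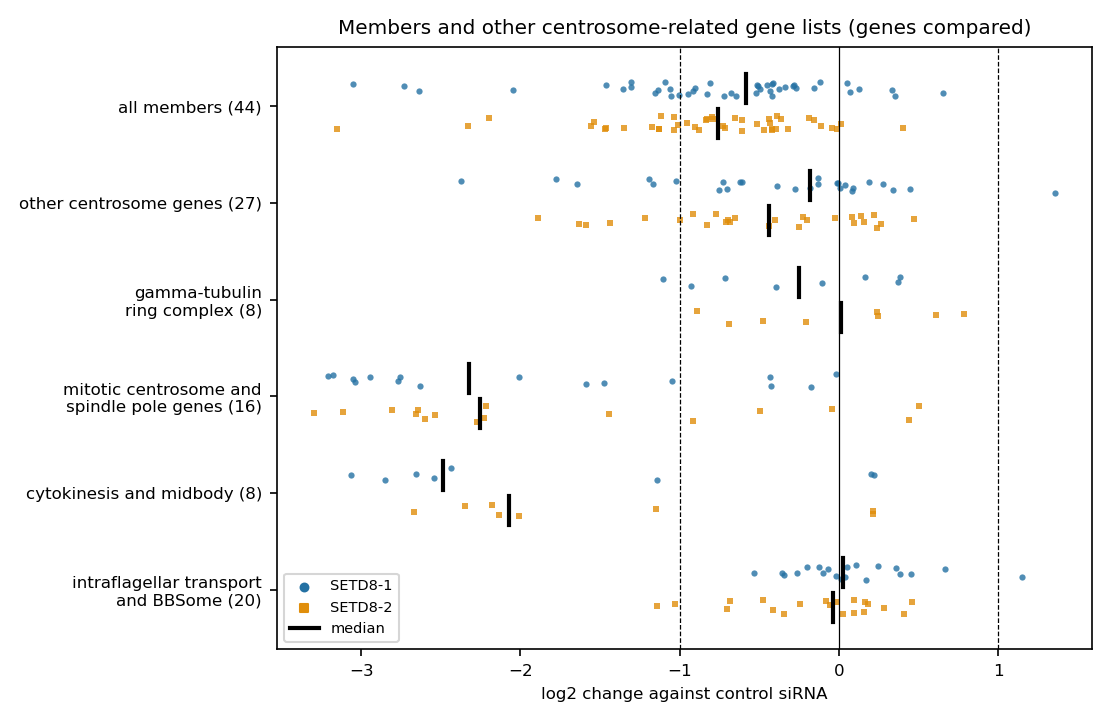
Log2 change against the control siRNA for the genes compared in each list, with SETD8-1 as circles, SETD8-2 as squares and the list median as a black bar. The members (medians -0.58 and -0.76) lie between the mitotic centrosome genes (-2.32 and -2.25) and the intraflagellar transport genes (0.03 and -0.04).

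Promoter sequence was read to see what the members share beyond their names. Genes of the cell cycle often carry letters bound by E2F factors, a cell cycle homology region (CHR) bound by the MuvB complex, and a CCAAT box bound by NF-Y. RefSeq windows of 300 bases, 250 before a transcript start to 50 after it (GRCh38.p14), were matched by symbol for 45 of the 47 members, 59 windows in all. They were searched on both strands for CHR letters, read as TTTGAA or else with C as TTCGAA, and for the CCAAT box. The E2F core was read as TTCCCGC in its usual form, with the variant spellings TTGGCGC and in addition TTCGCGC and lastly TTGCCGC. No matches of different motifs overlapped in the members' windows.

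The first 260 bases of 5 windows follow, 5′ to 3′ on the strand of the gene, with matches in capitals. CEP55 (chr10:93496362-93496621, plus strand), STIL (chr1:47314138-47314397, minus strand) and CEP152 (chr15:48811060-48811319, minus strand) are shown as members at least 2-fold lower with both siRNAs that hold E2F core letters. CEP128 (chr14:80941729-80941988, minus strand) was as low but holds no match in these bases. TUBG1 (chr17:42609433-42609692, plus strand) holds E2F core and CCAAT letters and changed little.
CEP55: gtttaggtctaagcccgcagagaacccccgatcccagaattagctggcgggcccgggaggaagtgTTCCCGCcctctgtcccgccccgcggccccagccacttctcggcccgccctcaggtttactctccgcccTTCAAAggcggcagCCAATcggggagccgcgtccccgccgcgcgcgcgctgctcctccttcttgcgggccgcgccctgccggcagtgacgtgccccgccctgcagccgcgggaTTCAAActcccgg
STIL: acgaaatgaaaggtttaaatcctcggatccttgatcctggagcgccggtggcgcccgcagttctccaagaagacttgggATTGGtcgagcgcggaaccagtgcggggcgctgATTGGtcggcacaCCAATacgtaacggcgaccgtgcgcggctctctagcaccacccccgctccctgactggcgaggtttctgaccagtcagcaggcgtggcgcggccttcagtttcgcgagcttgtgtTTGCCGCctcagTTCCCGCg
CEP152: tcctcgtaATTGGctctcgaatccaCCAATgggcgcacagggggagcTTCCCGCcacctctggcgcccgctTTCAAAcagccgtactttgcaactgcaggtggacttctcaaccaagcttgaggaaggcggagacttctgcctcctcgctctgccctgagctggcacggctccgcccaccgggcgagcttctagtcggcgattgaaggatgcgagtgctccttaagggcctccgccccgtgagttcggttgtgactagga
CEP128: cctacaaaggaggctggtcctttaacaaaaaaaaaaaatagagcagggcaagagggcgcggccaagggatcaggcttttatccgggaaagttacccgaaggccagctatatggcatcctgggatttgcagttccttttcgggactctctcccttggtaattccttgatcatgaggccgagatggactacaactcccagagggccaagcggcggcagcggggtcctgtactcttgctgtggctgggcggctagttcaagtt
TUBG1: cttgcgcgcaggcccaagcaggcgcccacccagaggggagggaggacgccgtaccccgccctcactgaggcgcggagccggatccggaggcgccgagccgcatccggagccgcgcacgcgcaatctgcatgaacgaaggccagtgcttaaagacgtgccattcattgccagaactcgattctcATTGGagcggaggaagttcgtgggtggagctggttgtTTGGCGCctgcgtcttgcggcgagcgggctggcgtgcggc

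In the CEP55 window a CHR read on the opposite strand (TTCAAA) began at position -116 from the start and CCAAT at -102, and a further CHR on that strand lay across the start. Of the members' windows, 29 of 59 (49.2%) held E2F core letters, where 18.4% of the windows of all genes compared and 13% of all 35116 windows did. CHR letters were in 17 of 59 (28.8%), against 12.4% and 16.4%, and CCAAT in 26 of 59 (44.1%), against 34.7% and 34.6%. The median GC content was 64% in the members' windows, 64.7% for all genes compared and 58.7% over all windows. Several windows of 1 gene can overlap, so the same count was made by gene: 25 of 45 members (55.6%) held E2F core letters in any window, against 24.4% of the genes compared. By gene, CHR letters were held by 16 (35.6%), against 16.1%, and CCAAT by 22 (48.9%), against 43.2%, which is near the background.

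Matches were also counted by the size of the change, as a description of few genes. E2F core letters were found for 4 of the 8 members that passed 2-fold lower with both siRNAs and for 19 of the other 34 members compared that had a window. CHR letters were found for 3 of 8 and 13 of 34, and CCAAT for 5 of 8 and 16 of 34. A match is a description of letters, and no match says only that these letters are not in the window.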

How the data were processed

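Total RNA was labelled as biotinylated cRNA from 250 ng per sample and hybridised to 1-colour arrays, per the labels' protocols. The authors deposited a linear intensity for each probe set, and the submitters' processing notes name MAS5. No source used here gives its version or parameters. MAS5 sets arrays to a common level (with the lowest and highest 2% left out, each array's mean was 497), which would hide a shift of all genes, and dim signals may be background. Of 54613 probe sets, 41091 were assigned to 1 gene symbol by GEO's platform annotation, with symbols updated by gene number to RefSeq (41037 matched). The 1801 probe sets with several symbols and 11721 that were not listed were left out.

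Signals under 11.7, the 25th percentile, were set to it before log2. The brightest probe set by mean log2 intensity stood for each gene, which was compared where that mean was at least 5.39 (a signal of 42.0), the median over all probe sets. No test was possible with 1 array per siRNA, so members were counted by size, beside the share of all genes past it. The members, roles, lists, motifs and alternatives were chosen with earlier results of these data known. The members named with values were those 2-fold lower with both siRNAs, those just inside and outside that size, those most different between the siRNAs, all HAUS genes and, by role, the rest; of other lists, up to 4 genes with the largest mean change in the same direction. The script was tested on simulated data with known changes, which checks the code and not the calls made on these arrays. The alternatives tried were quantile normalization and median scaling, a pseudocount of 16, leaving out the filter or raising it to the 75th percentile, averaged probe sets, probe sets with the suffixes _s_at, _x_at and _a_at left out, the probe set brightest on the control array, and sizes of 1.5-fold and 3-fold. Python 3.11.15, numpy 2.4.6, pandas 2.3.3 and matplotlib 3.10.9 were used.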

Additional observations from a re-analysis of the deposited data

Results flagged for a closer look

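Members that lay on opposite sides of control with the 2 SETD8 siRNAs and were at least 2-fold apart were singled out. The log2 difference, SETD8-2 minus SETD8-1, was -1.89 for CEP95, -1.14 for CEP97, -1.09 for CEP19 and 1.05 for CEP126. All 4 lie within the 95th percentile of this difference for genes of like signal (2.21 for CEP95 and CEP126, 1.72 for CEP97 and CEP19), and 4 of 44 members past 2-fold is no more than the share of all genes (6.38% lower and 6.18% higher). CEP95 rests on 1 probe set: averaged with 2 dim ones, its change with SETD8-2 was -0.02 in place of -1.53. With 1 array per siRNA these differences were not tested.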

How the results depend on the processing

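The number of members at least 2-fold lower with both siRNAs was 8, against 398 of 12307 genes. It was 7 with median scaling (366 of 12308 genes), 6 with quantile normalization (358 of 12311), 7 with a pseudocount of 16 (346 of 12301) and 8 with no filter (737 of 19775). With shared probe sets left out it was 7 of 33 members (289 of 9414 genes), without CEP57L1 and CEP70 but with NEDD1. With the probe set brightest on the control array it was 9, CEP162 being added; this choice favours lower calls, with 547 of 12340 genes lower and 109 higher. It was 4 with averaged probe sets (336 of 12307 genes), 3 of 26 members with the filter at the 75th percentile (204 of 7755 genes), where 18 members were not compared, and 19 and 3 at sizes of 1.5-fold and 3-fold (907 and 191 of 12307 genes). The count of members at least 2-fold higher with both was 0 under each of these alternatives, and at least 1.5-fold higher also 0. At any size, the members lower with both were 36, and 34 to 37 under the alternatives that compared all 44, 26 of 33 without shared probe sets and 21 of 26 with the filter at the 75th percentile; the members higher with both were 0, except for 3 with averaged probe sets. The members' median change stayed between -0.81 and -0.47 with SETD8-1 and between -0.88 and -0.61 with SETD8-2, and the median difference between the siRNAs between -0.03 and 0.05. Among values of single members past 2-fold, 1 turned its sign: CEP97 with SETD8-2 had 0.21 without shared probe sets, in place of -1.01, because only another probe set was left. No paired analysis was possible because each siRNA has 1 array. The variation between cultures is not known here, and dim signals limit what the smaller changes can show.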
